A study of Mus musculus with 6 samples.

Results

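The p53 pathway was examined in mouse Th17 cells grown in culture (helper T cells known for secreting interleukin 17) through 10 named genes: Trp53, which encodes p53, and 9 of its transcriptional targets with roles in cell cycle arrest, feedback or stress response (Mdm2, Cdkn1a, Ccng1, Phlda3, Eda2r, Zmat3, Aen, Sesn1 and Trp53inp1). The genes were taken by symbol from the 15452 rows of the table, and all 10 were found and passed the filter on low counts. The knockout group was 3 libraries from mice that carried floxed PDH alleles together with CD4 Cre. The sample titles spell the floxed gene PHD, where the genotype labels and the series title have PDH or pyruvate dehydrogenase, and the spelling PDH is followed. The WT group was 3 libraries from mice with the floxed alleles and no Cre, so both groups carry the floxed alleles, and an effect of Cre itself and of the deletion cannot be told apart. PDH, pyruvate dehydrogenase, is the enzyme complex of mitochondria that converts pyruvate to acetyl-CoA, and CD4 Cre acts in developing T cells of both the CD4 and the CD8 lineage. Naive CD4+ T cells were bead-sorted from spleen and lymph node and kept for 3 days with plate-bound anti-CD3 (5 µg/mL), anti-CD28 (1 µg/mL), IL-6 (30 ng/mL), TGFβ (2 ng/mL) and anti-IFNγ (5 µg/mL). The labels give no strain, age or pooling of mice and do not say whether replicates are separate animals, so the spread behind each p-value is that between these samples and may be technical.

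p53 is a transcription factor that is held at a low level because MDM2, the product of one of its own target genes, marks it for destruction. DNA damage and other stresses release p53 from MDM2, mostly by changing the protein and not its messenger RNA. The stabilised protein then switches on genes that stop the cell cycle, above all Cdkn1a, and genes that feed back on p53, repair damage, restrain growth signals or start cell death. In activated T cells, which divide fast, the pathway is known as a brake on expansion.

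p53 binds DNA as a tetramer, and each pair of subunits recognises a 10-base element of 3 purines, C, 2 A or T bases, G and 3 pyrimidines, known as the p53 half-site. RefSeq promoter windows (build GRCm38.p6) were matched by symbol for 8 of the 10 genes, as 11 annotated starts, and the 250 bases before each start were searched on both strands. At least 1 half-site was found for 6 of these 8 genes (Trp53, Mdm2, Cdkn1a, Ccng1, Aen and Sesn1), in 6 of 11 windows, against 7.13% of all 32851 windows in the table. No half-site stood in the windows of Phlda3 and Eda2r, which says only that these letters are not in those bases. Only Cdkn1a held 2 half-sites with at most 13 bases between them, a pair found in 0.064% of all windows. The other windows with a match held 1 half-site each. The stretches are shown for 5 genes, 5′ to 3′ along the gene's strand. They show where half-sites stand before genes that were higher in knockout libraries. Capitals mark the half-sites. Bases in an annotated exon were left out, which is why Aen, with its half-site inside its own first exon, is not shown.
Cdkn1a chr17:29090729-29090975 (+ strand): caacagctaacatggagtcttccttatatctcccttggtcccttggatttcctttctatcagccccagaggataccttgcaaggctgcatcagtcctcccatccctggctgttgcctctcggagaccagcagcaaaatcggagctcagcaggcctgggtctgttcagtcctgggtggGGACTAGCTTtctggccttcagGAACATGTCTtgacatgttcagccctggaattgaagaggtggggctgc
Mdm2 chr10:117710890-117710989 (- strand): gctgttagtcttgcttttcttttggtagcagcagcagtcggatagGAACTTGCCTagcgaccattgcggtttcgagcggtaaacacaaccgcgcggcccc
Ccng1 chr11:40755417-40755516 (- strand): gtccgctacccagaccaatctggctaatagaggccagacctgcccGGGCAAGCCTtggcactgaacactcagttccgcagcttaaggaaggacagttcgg
Trp53 chr11:69580256-69580338 (+ strand): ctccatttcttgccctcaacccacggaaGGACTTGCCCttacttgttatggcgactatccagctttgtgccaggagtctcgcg
Sesn1 chr10:41887221-41887320 (+ strand): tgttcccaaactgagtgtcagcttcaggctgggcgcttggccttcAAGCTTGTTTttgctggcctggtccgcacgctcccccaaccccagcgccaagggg
The Cdkn1a window is the more distal of 2 annotated starts, which lie 2790 bases apart, and the nearer window held no half-site. Its half-sites begin 73 and 51 bases before the distal start. The second one overlaps the spaced pair CATGNNNNNNCATG, a pattern that 0.49% of all windows hold on either strand. The other CATG of that pair lies in the 10 bases right after the second half-site. Those bases break the half-site rule only at their first base, a T, and so were neither counted nor capitalised. The half-site begins 186 bases before the start in Mdm2, 185 in Ccng1, 75 in Trp53 and 173 before the second of 2 annotated starts in Sesn1. These matches describe the letters and do not show binding, which was not measured.

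Every one of the 10 genes was higher in the knockout libraries, and in each of them the 3 knockout values lay above the 3 WT values. Levels are given as CPM (counts-per-million values scaled by TMM, the trimmed mean of M-values), changes on the log2 scale, knockout over WT, with the standard error (SE), and a gene is called where the adjusted p of edgeR's quasi-likelihood test (Benjamini-Hochberg over all 15361 tested genes) is under 0.05. By this rule 10 of 10 were called higher, against 23.1% of all tested genes called higher, 24.5% called lower and 47.6% called in either direction. The 10 genes were chosen with earlier results of these data known, so these shares describe them and are not an independent test. Groups that did not overlap, with knockout above, were seen in 10 of 10, against 28.8% of all tested genes. The median log2 fold change was 0.76 over the 10 genes and 0.01 over all tested genes. TMM scaling gave 3548 higher and 3763 lower calls over all genes, and upper-quartile scaling 4382 higher and 2927 lower.

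**Figure D1:**
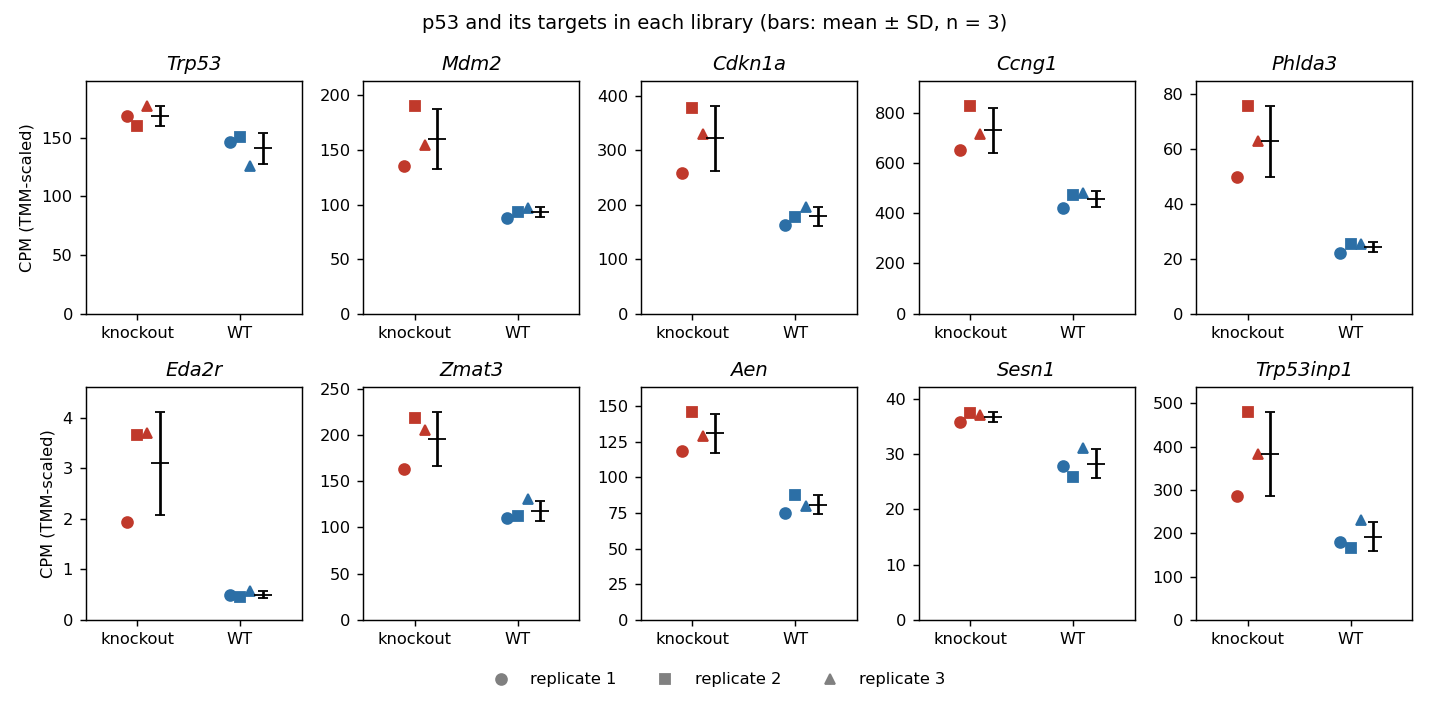
CPM of each of the 10 genes in each of the 6 libraries, with knockout on the left and WT on the right of each panel; symbols mark the replicate number, and bars show mean ± SD (n = 3). No knockout point falls within the WT range, and as a ratio of the lowest knockout to the highest WT value the gap is narrowest for Trp53 (1.07), at 160.2 CPM in the lowest knockout library and 150.2 CPM in the highest WT library.

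Trp53 itself moved least. Its level was 168, 160.2 and 177 CPM in knockout replicates 1 to 3, against 147, 150.2 and 126 CPM in WT replicates 1 to 3. The lowest knockout library stood 1.07 times above the highest WT library, so the groups were separate by a small margin. The log2 fold change was 0.26 ± 0.08 (SE; 95% interval 0.09 to 0.43; adjusted p = 0.0194). Without knockout replicate 3 the call was lost (0.22, adjusted p = 0.0742). Against a fold change of 1.2 instead of 0, Trp53 did not pass (adjusted p = 0.500). Of all tested genes, 31.9% had a higher log2 fold change than Trp53.

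The feedback genes came next in the pathway. Mdm2, the ubiquitin ligase that targets p53, was at 136, 190.4 and 154 CPM in knockout libraries, against 87.9, 93.6 and 96.9 CPM in WT libraries. Knockout replicate 2 was the highest and knockout replicate 1 the lowest of the knockout values, and the WT values lay close together. Mdm2 rose 1.73-fold (log2 0.79 ± 0.12, adjusted p = 0.000886). Ccng1, which encodes cyclin G1, a partner of the phosphatase PP2A that acts on MDM2, was at 649, 826 and 713 CPM in knockout libraries, against 419.7, 471 and 478 CPM in WT libraries. Its log2 rise was 0.68 ± 0.09 (95% interval 0.47 to 0.89, adjusted p = 0.000405). Trp53inp1, a stress-induced protein that helps p53 kinases act and takes part in autophagy, was at 286, 479.8 and 383 CPM in knockout libraries, against 180.1, 166 and 231 CPM in WT libraries. Its knockout values spread more than those of any other of the 10 genes except Eda2r, with a coefficient of variation of 25.3% in knockout and 17.7% in WT libraries. Its 1.99-fold rise (0.99 ± 0.23, adjusted p = 0.0180) was the least secure of the large changes: it lost its call without knockout replicate 3 (adjusted p = 0.0572), without WT replicate 1 (adjusted p = 0.0709) and without WT replicate 2 (adjusted p = 0.0774).

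The ratio of Mdm2 to Trp53, taken within each library after the values above were seen, was 0.805, 1.19 and 0.873 in knockout libraries, against 0.599, 0.623 and 0.769 in WT libraries. The groups did not overlap (exact two-sided permutation p = 0.1, the smallest that 20 assignments of 3 against 3 allow). The ratio of Cdkn1a to Trp53 was 1.53, 2.35 and 1.86 in knockout libraries, against 1.10, 1.18 and 1.56 in WT libraries. Here WT replicate 3 lay above knockout replicate 1 (exact two-sided permutation p = 0.2), so the groups overlapped.

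Cdkn1a, the arrest gene, encodes p21, an inhibitor of cyclin-dependent kinases and the best known p53 target. It was at 259, 376 and 330.0 CPM in knockout libraries, against 162, 177 and 196 CPM in WT libraries. All knockout values stood above all WT values, with knockout replicate 1 nearest to the WT range. The change was 1.80-fold (0.85 ± 0.14, 95% interval 0.52 to 1.18, adjusted p = 0.00224). An opposite-strand entry overlaps 273 exon bases of Cdkn1a and was not analysed here, and reads of the pair cannot be told apart unless counting used strand, which is not stated.

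Among the targets that restrain growth signals, Phlda3 moved most. Phlda3, whose protein competes with AKT for membrane lipids, was at 49.7, 75.5 and 62.9 CPM in knockout libraries, against 22.0, 25.2 and 25.5 CPM in WT libraries. The lowest knockout value was 1.95 times the highest WT value. The change was 2.58-fold (1.37 ± 0.15, adjusted p = 0.000310). Zmat3, an RNA-binding zinc finger protein, was at 163, 219 and 205 CPM in knockout libraries, against 110.0, 113 and 130.3 CPM in WT libraries (1.66-fold, 0.73 ± 0.11, adjusted p = 0.00115). Sesn1, a sestrin that restrains the growth kinase complex mTORC1, was at 35.7, 37.4 and 37.1 CPM in knockout libraries, against 27.9, 25.8 and 31.0 CPM in WT libraries. Its knockout values were the tightest of the 10 genes, with a coefficient of variation of 2.4%. Sesn1 rose 1.30-fold (0.38 ± 0.08, adjusted p = 0.00380) and, tested against a fold change of 1.2, did not pass (adjusted p = 0.0918).

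The remaining genes lie on the side of cell death. Aen, an apoptosis-enhancing nuclease, was at 119, 146 and 129 CPM in knockout libraries, against 74.6, 87.8 and 80.0 CPM in WT libraries (1.62-fold, 0.70 ± 0.09, adjusted p = 0.000242). Eda2r, a receptor of the TNF receptor family that binds ectodysplasin A2, was the scarcest of the 10 and changed by the widest margin. It had 78, 128 and 131 counts in knockout libraries, against 18, 17 and 23 counts in WT libraries. On the CPM scale this was 1.93, 3.67 and 3.71 in knockout libraries, against 0.486, 0.445 and 0.568 in WT libraries. The lowest knockout value was 3.40 times the highest WT value. The change was 6.15-fold (2.62 ± 0.30, 95% interval 1.96 to 3.29, adjusted p = 0.000141), and 0.93% of all tested genes had a higher log2 fold change.

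**Figure D2:**
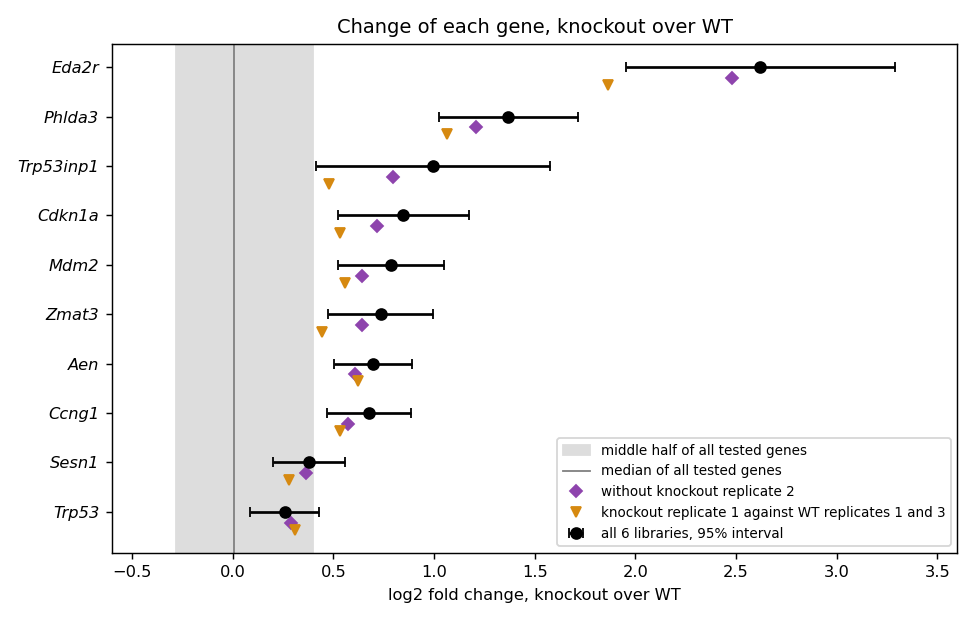
Log2 fold change of knockout over WT for each of the 10 genes, with the 95% interval over all 6 libraries, the value without knockout replicate 2 (diamonds) and the value of knockout replicate 1 against WT replicates 1 and 3 (triangles); the grey band covers the 25th to 75th percentile of all tested genes and the grey line their median. All points lie right of 0, from 0.26 for Trp53 to 2.62 for Eda2r, and for 9 of the 10 genes the triangle lies left of the 6-library value.

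In the order of their changes the genes ran Eda2r, Phlda3, Trp53inp1, Cdkn1a, Mdm2, Zmat3, Aen, Ccng1, Sesn1 and Trp53. The 95% interval of Eda2r lay above that of Phlda3 (1.02 to 1.71), while every later pair of neighbours had overlapping intervals, so their order is not fixed by these data. The interval of Trp53 (0.09 to 0.43) lay below those of Ccng1 (0.47 to 0.89), Aen (0.50 to 0.89), Zmat3 (0.47 to 1.00), Mdm2 (0.52 to 1.05) and Cdkn1a (0.52 to 1.18). Tested against a fold change of 1.2, 8 of the 10 genes passed, against 13.8% of all tested genes that passed as higher. Levels of different genes were compared as CPM per kilobase of merged exon length, from an annotation release that differs from the one used upstream. On that scale Ccng1 was the most abundant transcript of the 10 in both groups, at 208 CPM per kilobase in knockout and 130 CPM per kilobase in WT libraries. Cdkn1a followed at 90.5 in knockout and 50.3 in WT libraries, and Eda2r was last at 0.527 in knockout and 0.085 in WT libraries. Trp53 stood at rank 4 in knockout libraries (41.7 CPM per kilobase) and at rank 3 in WT libraries (34.8 CPM per kilobase), having changed places with Trp53inp1 (59.1 in knockout and 29.7 in WT libraries).

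The libraries differed in ways that touch these values. Total counts ran from 33802154 to 39398842 in knockout and from 37556787 to 40407124 in WT libraries. In knockout replicate 2, 4.95% of counts fell on 1 unnamed entry, against 0.080 to 0.215% in the other libraries. B cell markers (6 of 6 listed, summed by library totals) ran from 63.8 to 192 CPM in knockout and from 53.8 to 120 CPM in WT libraries. Ms4a1, which encodes the B cell surface protein CD20, was at 0.355, 5.68 and 7.25 CPM in knockout replicates 1 to 3, against 0.293, 2.44 and 0.247 CPM in WT replicates 1 to 3, so it was raised in knockout replicates 2 and 3 and in WT replicate 2. None of the 6 B cell markers was called, and their median log2 fold change was 1.91. Listed myeloid markers (4 of 5 analysed here, Cd14 not) summed to 2.07 to 5.12 CPM in knockout and 6.41 to 18.9 CPM in WT libraries. CD8 T and NK cell markers (3 of 5, Ncr1 and Klrb1c not analysed here) summed to 8.02 to 20.1 CPM in knockout and 14.0 to 15.0 CPM in WT libraries. The 7 listed helper T cell and Th17 markers, Cd4, Il17a and Il17f among them, were all present and summed to 1146 to 1285 CPM in knockout and 2068 to 2273 CPM in WT libraries. The part of these cell types in the results was not tested, and a change in the mix of cells and a change in RNA per cell cannot be told apart in bulk RNA. Which PDH gene is floxed is not named in the labels. Pdha1, which encodes a catalytic subunit of PDH, was at 198, 193 and 186 CPM in knockout libraries, against 256, 236 and 251 CPM in WT libraries. It was called lower (-0.36 ± 0.06, adjusted p = 0.00087), and a count over a whole gene does not show the loss of an exon.

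Within the knockout group the 10 genes tended to order the libraries in the same way. Knockout replicate 1 was the lowest knockout library in 9 of the 10 genes, all but Trp53, while among all genes called higher 36.7% had it lowest. Knockout replicate 2 was the highest in 8 of the 10, while 31.4% of all genes called higher had it highest. Eda2r and Trp53 were highest in knockout replicate 3. In the WT group, replicate 3 was highest in 8 of the 10, all but Trp53 and Aen, against 45.1% of all genes called higher. Trp53 ran the other way, lowest in knockout replicate 2 and in WT replicate 3, the libraries in which most of its targets were highest. That order rests on 3 libraries per group. The coefficient of variation of Trp53 was 5.0% in knockout and 9.3% in WT libraries, and a relation to its targets was not tested.

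**Figure D3:**
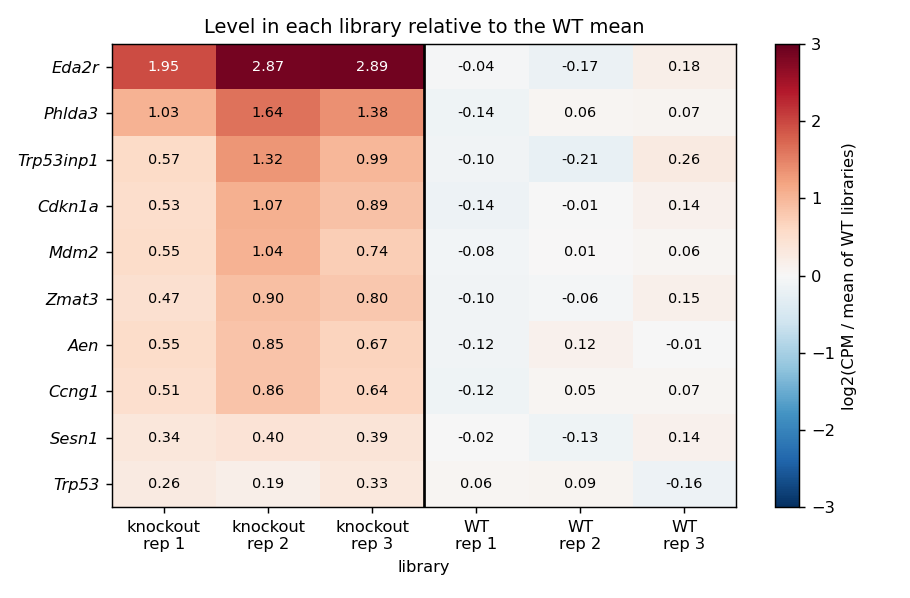
Level of each gene in each library as log2 of its CPM over the mean of the 3 WT libraries, with knockout libraries left of the line and WT libraries right of it and the number printed in each cell. Knockout replicate 1 has the palest of the knockout cells in every row except Trp53, from 0.26 for Trp53 to 1.95 for Eda2r.

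Knockout replicate 1 is also the knockout library with the fewest B cell counts, so the 10 genes were read again from knockout replicate 1 against WT replicates 1 and 3, which leaves out all 3 libraries with raised B cell markers. The lone knockout library is then assumed to vary like the WT libraries. In this reading the log2 fold changes of the 10 genes ran from 0.28 for Sesn1 to 1.87 for Eda2r. Eda2r was 3.65-fold higher (log2 1.87, adjusted p = 0.00531) and Phlda3 2.09-fold (1.07, adjusted p = 0.000490). Cdkn1a was 1.45-fold higher (0.53, adjusted p = 0.0114) and Mdm2 1.47-fold (0.56, adjusted p = 0.00213). Trp53 was at 0.31 (adjusted p = 0.0451). Trp53inp1 was at 0.48 (1.39-fold, adjusted p = 0.0733) and Sesn1 at 0.28 (adjusted p = 0.0730), and neither was called. Without knockout replicate 2 all 10 were called higher, against 18.8% of all genes tested there.

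Further p53 targets, listed by role, were mostly higher as well, and these lists were drawn up with earlier results of these data known. Of 12 apoptotic targets tested, 9 rose and 0 fell, the other 3 did not pass, and the median change was 0.62. Over all tested genes, 23.1% were called higher and 24.5% lower. Without knockout replicate 2, 7 were called higher, against 18.8% of all genes tested there. Bcl2l1, which opposes apoptosis, was at 339, 394 and 376 CPM in knockout libraries, against 206, 215 and 213 CPM in WT libraries (0.80 ± 0.07, adjusted p = 3.34e-05). Bbc3, which encodes the pro-apoptotic protein PUMA, was at 26.4, 34.96 and 33.2 CPM in knockout libraries, against 11.8, 15.0 and 13.5 CPM in WT libraries (1.23 ± 0.13). Pmaip1, which encodes the pro-apoptotic protein NOXA, was at 39.4, 55.4 and 45.4 CPM in knockout libraries, against 14.6, 19.2 and 19.2 CPM in WT libraries (1.40 ± 0.15). Bcl2l1 therefore moved in the same direction as the genes it opposes, and it is counted among the 9 that rose. Perp, a membrane protein of the p53 death response, had overlapping groups, with 30.3, 59.3 and 44.5 CPM in knockout and 22.8, 23.0 and 32.4 CPM in WT libraries (0.78 ± 0.29, adjusted p = 0.0829), and it passed by DESeq2 (adjusted p = 0.0353), by limma-voom (adjusted p = 0.0387), without robust dispersion (adjusted p = 0.0271) and without knockout replicate 1 (adjusted p = 0.00876). Its value was 0.52 without knockout replicate 2 (adjusted p = 0.120) and 0.14 in knockout replicate 1 against WT replicates 1 and 3 (adjusted p = 0.676).

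Of 14 repair and metabolic targets, 10 rose, 2 fell and 2 were not called (median 0.39). Over all tested genes, 23.1% were called higher and 24.5% lower, so the share that fell was no larger than that over all genes. Sesn2, a sestrin like Sesn1, was at 87.0, 97.1 and 95.04 CPM in knockout libraries, against 34.2, 43.9 and 37.7 CPM in WT libraries (1.27 ± 0.09, adjusted p = 1.86e-05). Gadd45a, a damage-response protein, was at 12.7, 7.70 and 9.15 CPM in knockout libraries, against 3.40, 3.22 and 3.46 CPM in WT libraries (1.55 ± 0.19), and Ddit4, an inhibitor of mTORC1, rose by 0.35 ± 0.06 on the log2 scale. The decreases were Gls2, a mitochondrial glutaminase, at 8.79, 7.04 and 8.76 CPM in knockout against 17.9, 17.2 and 16.7 CPM in WT libraries (-1.07 ± 0.11, adjusted p = 7.97e-05), and Tigar, a fructose bisphosphatase that slows glycolysis (-0.27 ± 0.07, adjusted p = 0.0109). The Tigar call was lost without knockout replicate 3 (adjusted p = 0.0504) and in knockout replicate 1 against WT replicates 1 and 3 (adjusted p = 0.204). Fdxr, a mitochondrial ferredoxin reductase, was not called (-0.22 ± 0.09, adjusted p = 0.0646), and passed without knockout replicate 1 (adjusted p = 0.0376) and without WT replicate 2 (adjusted p = 0.0253). The number of this list called higher was 6 without WT replicate 1, against 16.9% of all genes tested there. It was 5 without WT replicate 2, against 21.5% of all genes. The number called lower was 1 without knockout replicate 3, against 20.4% of all genes.

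Of 13 further arrest and feedback targets, 10 rose, 0 fell and 3 were not called (median 0.73). Over all tested genes, 23.1% were called higher and 24.5% lower. Without WT replicate 1 the number called higher was 7, against 16.9% of all genes tested there. The smallest p-values were those of Gtse1, a microtubule-associated protein that restrains p53 in human cells, at 149, 168 and 168 CPM in knockout against 95.4, 96.7 and 101 CPM in WT libraries (0.73 ± 0.06), Tob1, an antiproliferative protein (0.82 ± 0.08), and the long noncoding RNA Pvt1 (0.73 ± 0.10). Pml, the scaffold of PML nuclear bodies, was not called, at 109, 121 and 142 CPM in knockout and 119, 122 and 108 CPM in WT libraries (0.09 ± 0.10, adjusted p = 0.473).

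Genes that act on p53 were called in either direction. Of 21 regulators tested, 9 rose, 4 fell and 8 did not pass (median 0.16), against 23.1% of all tested genes higher and 24.5% lower, so the share that fell was no larger than that over all genes. Cdkn2a was not analysed here. Mdm4, the relative of MDM2 that blocks p53 transactivation, was at 326, 342 and 352 CPM in knockout libraries, against 212, 186 and 244 CPM in WT libraries (0.67 ± 0.09, adjusted p = 0.000397). The acetyltransferase gene Crebbp (0.68 ± 0.07) and the deacetylase gene Sirt1 (0.76 ± 0.10), whose products add and remove acetyl groups on p53, both rose. Daxx, a chromatin protein that binds MDM2, fell by 0.49 ± 0.06. Rpl5 and Rpl11, ribosomal proteins that can bind and inhibit MDM2, fell by 0.34 ± 0.06 and 0.39 ± 0.08, with Rpl11 at 674, 649 and 570.1 CPM in knockout against 813, 870.0 and 792 CPM in WT libraries. Ribosomal protein genes have many near-identical pseudogenes between which counts can be split, and the Rpl11 call was lost in knockout replicate 1 against WT replicates 1 and 3 (adjusted p = 0.0749). Usp7, a deubiquitinase of MDM2 and p53, was not called, at 242, 236 and 228 CPM in knockout and 258, 255 and 266 CPM in WT libraries (-0.14 ± 0.06, adjusted p = 0.0584), although the groups did not overlap, and it passed by DESeq2 (adjusted p = 0.0329).

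Family relatives of the 10 genes, most of which are not known as p53 targets, were called about as often as other genes. Of 14 relatives tested, 4 rose, 3 fell and 7 were not called (median 0.20), against 23.1% higher and 24.5% lower over all genes, so these counts are near the background. Among those that rose, Sesn2 is also counted with the repair and metabolic targets and Mdm4 with the regulators. Trp63, Phlda2 and Edar were not analysed here. Trp73, a relative of Trp53, is counted with the further arrest and feedback targets, where it was not called (0.91 ± 0.42, adjusted p = 0.102). Beside Cdkn1a, the CDK inhibitor gene Cdkn1b was at 91.0, 82.2 and 87.2 CPM in knockout and 82.9, 76.9 and 83.6 CPM in WT libraries (0.10, 95% interval -0.04 to 0.24). Cdkn1c had 88, 27 and 48 counts in knockout and 36, 45 and 48 counts in WT libraries (adjusted p = 0.389), and it was called higher in knockout replicate 1 against WT replicates 1 and 3 (1.01, adjusted p = 0.0391). Beside Ccng1, its relatives Ccng2 and Ccni fell by 0.37 ± 0.08 and 0.30 ± 0.06, with Ccng2 at 39.2, 46.3 and 39.8 CPM in knockout against 53.9, 53.3 and 54.9 CPM in WT libraries. Beside Zmat3, Zmat1 rose by 0.85 ± 0.11 and Zmat2 fell by 0.32 ± 0.07. Beside Sesn1, Sesn2 and Sesn3 parted: Sesn2 rose, as given above, while Sesn3 was at 385, 416 and 415 CPM in knockout and 443, 343 and 488 CPM in WT libraries (-0.07, 95% interval -0.34 to 0.20), a sign that upper-quartile scaling turns round. Without WT replicate 2 Sesn3 was called lower (adjusted p = 0.0486). Beside Phlda3, Phlda1 was at 4.51, 4.67 and 3.85 CPM in knockout and 4.11, 4.84 and 3.81 CPM in WT libraries (0.03, 95% interval -0.32 to 0.39). Beside Eda2r, Tnfrsf19 had 25, 14 and 27 counts in knockout against 6, 4 and 3 counts in WT libraries (2.37 ± 0.42, adjusted p = 0.00151). It reached the table's minimum of 10 counts through knockout libraries alone, so a difference was built into its selection, and without it 3 of 13 relatives rose. Beside Aen, Isg20 was at 0.50 ± 0.29 (adjusted p = 0.174) and Isg20l2 at -0.04 ± 0.08 (adjusted p = 0.723), and the sign of Isg20l2 turned round under upper-quartile scaling, library totals and the stricter filter. Beside Trp53inp1, Trp53inp2 was at 0.30 ± 0.19 (adjusted p = 0.213), and without knockout replicate 1 it was called higher (adjusted p = 0.0185).

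**Figure D4:**
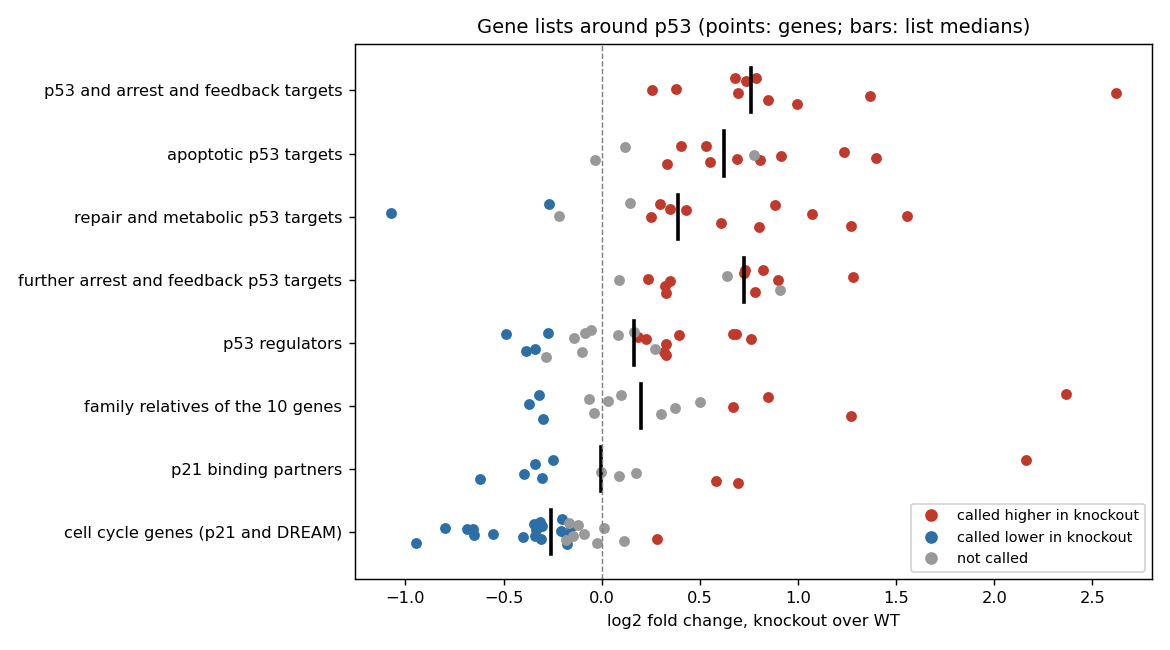
Log2 fold change of knockout over WT for every tested gene of 8 lists, 1 point per gene, coloured by its call, with a bar at each list's median. The 10 genes and the 3 lists of other p53 targets lie mostly right of 0 (medians 0.76, 0.62, 0.39 and 0.73), while the cell cycle list lies mostly left of it (median -0.26).

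Of 11 cyclins, kinases and other partners that p21 binds, 3 rose, 5 fell and 3 were not called (median -0.01), against 23.1% higher and 24.5% lower over all genes, so the share that rose is near the background. In knockout replicate 1 against WT replicates 1 and 3 the number lower was 3, against 18.6% of all genes tested there. Cdk6 was at 262, 244 and 251 CPM in knockout libraries, against 152, 166 and 149.8 CPM in WT libraries (0.69 ± 0.06, adjusted p = 4.04e-05), and Ccnd2, a D-type cyclin of G1 phase, was at 1241, 1374 and 1420.3 CPM in knockout libraries, against 905, 896 and 892 CPM in WT libraries (0.58 ± 0.07). Ccnd1 was scarce, with 11, 22 and 19 counts in knockout against 3, 5 and 4 counts in WT libraries (2.16 ± 0.46). It reached the minimum of 10 counts through knockout libraries alone, and without it 2 of 10 partners rose. Its call was lost in knockout replicate 1 against WT replicates 1 and 3 (adjusted p = 0.144). Ccne1, the E-type cyclin of S phase entry, was at 45.7, 45.4 and 45.2 CPM in knockout libraries, against 71.4, 74.7 and 63.5 CPM in WT libraries (-0.62 ± 0.07), and Ccna2 and Cdk2 fell by 0.40 ± 0.06 and 0.30 ± 0.06. Pcna, the replication clamp that p21 also binds, was not called, at 625, 599.8 and 572 CPM in knockout and 549, 628 and 512 CPM in WT libraries (0.09 ± 0.08).

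Downstream of p21, the DREAM complex is known to repress cell cycle genes. Of 28 such genes 1 rose, 19 fell and 8 did not pass (median -0.26), against 23.1% higher and 24.5% lower over all genes. Ccnb2, a mitotic cyclin, was at 51.0, 48.5 and 53.8 CPM in knockout libraries, against 103, 95.3 and 96.4 CPM in WT libraries (-0.94 ± 0.06, adjusted p = 1.61e-05). Cenpa, the centromeric histone, was at 84.2, 70.8 and 76.0 CPM in knockout libraries, against 134, 136 and 131 CPM in WT libraries (-0.80 ± 0.07), and the spindle checkpoint gene Bub1b fell by 0.66 ± 0.06. E2f1, an activator of S phase genes, rose by 0.28 ± 0.06 on the log2 scale (adjusted p = 0.00604). Mki67, a marker of cycling cells, was at 1272, 1024 and 1149 CPM in knockout and 1072, 961 and 1155 CPM in WT libraries, and was not called (0.11, 95% interval -0.10 to 0.33). The number of these genes called lower was 7 in knockout replicate 1 against WT replicates 1 and 3, where 18.6% of all tested genes were lower, so the count is then near the background. There E2f1 was not called (adjusted p = 0.0722).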

How the data were processed

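Poly(A) RNA-seq libraries (6, made with a stranded mRNA kit per the labels' protocols) were compared as 3 knockout against 3 WT. The deposited values are expected counts, estimates for each gene that are already whole numbers, so none had to be rounded. Salmon, DESeq2 and DESeq are listed in the submitters' processing notes, with no version or role. The genome build is not given in the sources used here, nor is the annotation. Whether counting used strand is not stated. Every deposited row holds at least 10 counts in 3 libraries. Symbols were matched on unversioned IDs to GENCODE M21 (15138 of 15452; 18 with the same version), and where IDs shared a symbol the one with the highest mean count kept it. A count of 0 would allow up to 3 counts, about 0.074 to 0.089 CPM, and such floors cover counting error only. Replicates of a group differed by a chi-square of at least 24.05 per degree of freedom, so no library was counted as a repeat.

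edgeR 4.0.16 in R 4.3.3 was used: filterByExpr removed 91 genes, followed by TMM scaling, a quasi-likelihood fit (robust) on genotype alone and Benjamini-Hochberg adjustment over all 15361 tested genes. SE is the value implied by the F statistic. The fit was tested on simulated data. The genes and lists were chosen with earlier results of these data known. Of each list the text names up to 3 called genes with the smallest p in each direction and the uncalled gene with the highest mean, and all relatives. Alternatives (18) were RLE, upper-quartile and library-total scaling, DESeq2 1.42.0, limma-voom (limma 3.58.1), no filter and at least 50 counts in 3 libraries, a test against a 1.2-fold change, a replicate block, no robust dispersion, each library left out, the 3 libraries with raised B cell markers left out, and 27 entries over 5 times higher in knockout replicate 2 left out. Promoter sequences are those of RefSeq, and half-sites were searched by script. Figures were drawn with matplotlib 3.10.9.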

Additional observations from a re-analysis of the deposited data

How the results depend on the processing

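For the 10 genes, 172 of 180 values under the alternatives kept their direction and their side of the threshold, 8 kept the direction only, and none changed sign. Against a fold change of 1.2, Trp53 (0.26) and Sesn1 (0.38) lost their calls. Leaving out 1 library gave 0.18 to 0.31 for Trp53 and 0.80 to 1.16 for Trp53inp1. Without the 3 libraries with raised B cell markers, Sesn1 (0.28) and Trp53inp1 (0.48) lost theirs. Of 306 counts, 288 stayed within 1.5 times. Against a fold change of 1.2, 3981 genes were called, 13.8% of all tested genes as higher and 12.1% as lower. Beside these shares, 4 repair and metabolic targets were higher and 1 lower, and 6 further arrest and feedback targets were higher. Regulators gave 4 higher and 1 lower, relatives 0 lower, p21 partners 2 lower, and cell cycle genes 0 higher and 7 lower. Without the 3 libraries with raised B cell markers, 1 knockout library is left. Counts of repair and metabolic targets, p21 partners and cell cycle genes also moved past 1.5 times there. Leaving out 1 library, or the entries raised in knockout replicate 2, gave 5 to 10 repair and metabolic targets higher, against 16.9 to 22.9% of all genes. Leaving out 1 library gave 1 to 3 of them lower, against 18.9 to 23.6% of all genes. These settings use fewer libraries or a wider null; otherwise the cause was not tested.

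Some uncalled genes changed sign. Without the 3 libraries with raised B cell markers, Pml was at -0.0604, Trp53inp2 at -0.22 and Isg20l2 at 0.0942. Isg20l2 was at 0.0433 with upper-quartile scaling, 0.0077 with library totals and 0.0085 with the stricter filter, and Sesn3 at 0.0082 with upper-quartile scaling. Leaving out 1 library gave ranges of -0.0223 to 0.17 for Pml, -0.0642 to 0.67 for Cdkn1c, -0.0443 to 0.13 for Phlda1, -0.11 to 0.0475 for Isg20l2 and -0.20 to 0.0448 for Sesn3. With the replicate block, Fdxr was called lower (adjusted p = 0.0312), and 7218 genes were called in either direction. There 10 of the 10 genes were called higher, against 22.6% of all tested genes. Deviations of libraries with the same number correlated at -0.098, 0.093 and -0.259 across genes, and not every library correlated best with its own number. Deviations from a mean of 3 libraries are tied to each other, so these values cannot settle whether the numbers pair the libraries.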
